A study of Mus musculus with 18 samples.

Results

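The enzymes that write, copy and oxidise cytosine methylation, with their direct helpers, are encoded by Dnmt1, Uhrf1, Dnmt3a, Dnmt3b, Dnmt3l, Tet1, Tet2 and Tet3, and the RNA levels of these 8 genes in the mouse ovary are described here. They were chosen by symbol, and all 8 were found among the 30172 genes of the deposited tables. The libraries came from whole ovaries of wild-type C57BL/6J female pups, taken on postnatal day 3 (Pd3), day 7 (Pd7) or day 21 (Pd21). The mothers of the F1-HHcy pups ate chow with 3% methionine from 4 weeks before mating through lactation, which raises homocysteine in the blood (hyperhomocysteinemia, HHcy), and the mothers of the F1-Control pups ate normal chow. The period of feeding before mating is the one in the labels, and the methods of the study give a longer one. The pups themselves were not treated, and all fathers ate normal chow. There were 3 libraries in each of the 6 groups of diet and day, 18 in all, and by the labels Pd21 was a batch of its own (2), apart from the younger days (1). The labels do not say whether a library held the ovaries of 1 pup or of several, nor whether pups shared a litter, so the p-values measure the spread between these libraries, which may be technical. The comparison between the diets asks how the ovarian transcriptome of the pups differed at each day.

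As background, DNMT1 copies methylation onto the new DNA strand after replication, and UHRF1 recognises the half-methylated sites and recruits it. DNMT3A and DNMT3B place new methyl marks, and DNMT3L, which has no catalytic activity, stimulates them; in growing oocytes DNMT3A and DNMT3L set the maternal imprints. The TET enzymes oxidise 5-methylcytosine, which leads to its removal, and TET3 is the form stored in the egg. Oocytes also carry their own form of DNMT1, which is transcribed from a separate start.

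Because Dnmt1 and Dnmt3l have several annotated starts, windows of 250 bases before a start are shown for the genes whose levels moved most and for Uhrf1, the partner of Dnmt1. The sequences are those of RefSeq on GRCm38.p6, the build that the processing notes name, and run 5′ to 3′ on the strand of the gene. All 8 genes matched, with 15 windows among them. Capitals mark the GC box, searched as GGGCGG on both strands.
Dnmt1, first start, chr9:20959889-20960138, minus strand, outside the gene: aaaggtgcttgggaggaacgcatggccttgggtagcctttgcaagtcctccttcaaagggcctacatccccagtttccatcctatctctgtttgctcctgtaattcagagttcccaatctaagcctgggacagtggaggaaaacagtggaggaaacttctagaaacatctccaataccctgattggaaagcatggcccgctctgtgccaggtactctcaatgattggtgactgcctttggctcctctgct
Dnmt1, second start, chr9:20952980-20953229, minus strand, in an intron: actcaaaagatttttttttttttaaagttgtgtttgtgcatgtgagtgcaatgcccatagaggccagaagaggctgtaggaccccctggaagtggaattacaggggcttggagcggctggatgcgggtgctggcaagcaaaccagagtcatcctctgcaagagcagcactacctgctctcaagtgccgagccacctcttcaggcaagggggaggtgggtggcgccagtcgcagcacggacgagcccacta
Dnmt3l, second start, chr10:78049592-78049841, plus strand, in an intron: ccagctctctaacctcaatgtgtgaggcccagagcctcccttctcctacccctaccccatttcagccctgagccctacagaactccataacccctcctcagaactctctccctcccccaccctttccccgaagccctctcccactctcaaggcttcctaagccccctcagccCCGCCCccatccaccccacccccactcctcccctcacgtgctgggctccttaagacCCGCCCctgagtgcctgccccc
Uhrf1, second start, chr17:56304063-56304312, plus strand, in an intron: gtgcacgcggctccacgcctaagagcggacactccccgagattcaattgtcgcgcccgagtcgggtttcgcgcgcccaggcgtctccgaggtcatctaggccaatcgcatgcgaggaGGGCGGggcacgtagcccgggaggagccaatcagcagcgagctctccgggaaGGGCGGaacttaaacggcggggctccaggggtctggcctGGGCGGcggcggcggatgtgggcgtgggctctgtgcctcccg

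The first Dnmt1 window held 2 CpG dinucleotides and no GC box, and the second held 7 CpG and no GC box. The third Dnmt1 start, 7265 bases from the first, had a window with 26 CpG and 2 GC boxes. The Dnmt3l window shown held 4 CpG and 2 GC boxes, and the Uhrf1 window held 30 CpG and 3 GC boxes. The window of the first Dnmt3l start, which also overlaps the gene Aire, held 5 CpG and no GC box. That of the third Dnmt3l start held 3 CpG and no GC box. The median over 32851 windows of the same length was 6 CpG, and 32.7% of them held a GC box. At least 1 window of each of the 8 genes held a GC box, 11 of the 15 windows in all. The E2F forms searched were TTTCCCGC, in 0.895% of all windows, and TTTGGCGC, in 0.417%. Neither was found in the 15 windows, nor was the Nobox element (TAATTG, in 7.17%). Other E2F forms were not searched, such as TTTCGCGC, which stands in the Uhrf1 window shown and, on the other strand, in the third Dnmt1 window. Its share over all windows was not computed. The E-box CAGCTG, which 13% of all windows held, was in 1 of the 15, at the first start of Dnmt3l. Each motif that was searched was searched on both strands. The values below add all starts of a gene, so the Dnmt1 starts, 6909 bases apart for the first and second, cannot be told apart in them.

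Values are given in FPKM, the number of fragments of a gene divided by its length and by the size of the library, and each library held 33630304 to 39398922 fragments on genes. All 12 growing-oocyte genes and all 12 granulosa-cell genes of the lists used here were above 0 in at least 1 library of each of the 6 groups. The same held for all genes of the immune, endothelium and multiciliated-cell lists, so this does not test the labelled tissue. In whole ovary, fewer cells of a type and less RNA per cell cannot be told apart. The F1-Control Pd7 replicate 2 library was the lowest of its group for Dnmt3a, Dnmt3b, Tet1, Tet2 and Tet3, and the Tet3 result without it is given below. A gene is said to have risen or fallen where the adjusted p of limma on log2(FPKM + 1) was under 0.05, with the adjustment over all genes tested, and fold changes are on that scale, which understates the change of low genes.

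**Figure D1:**
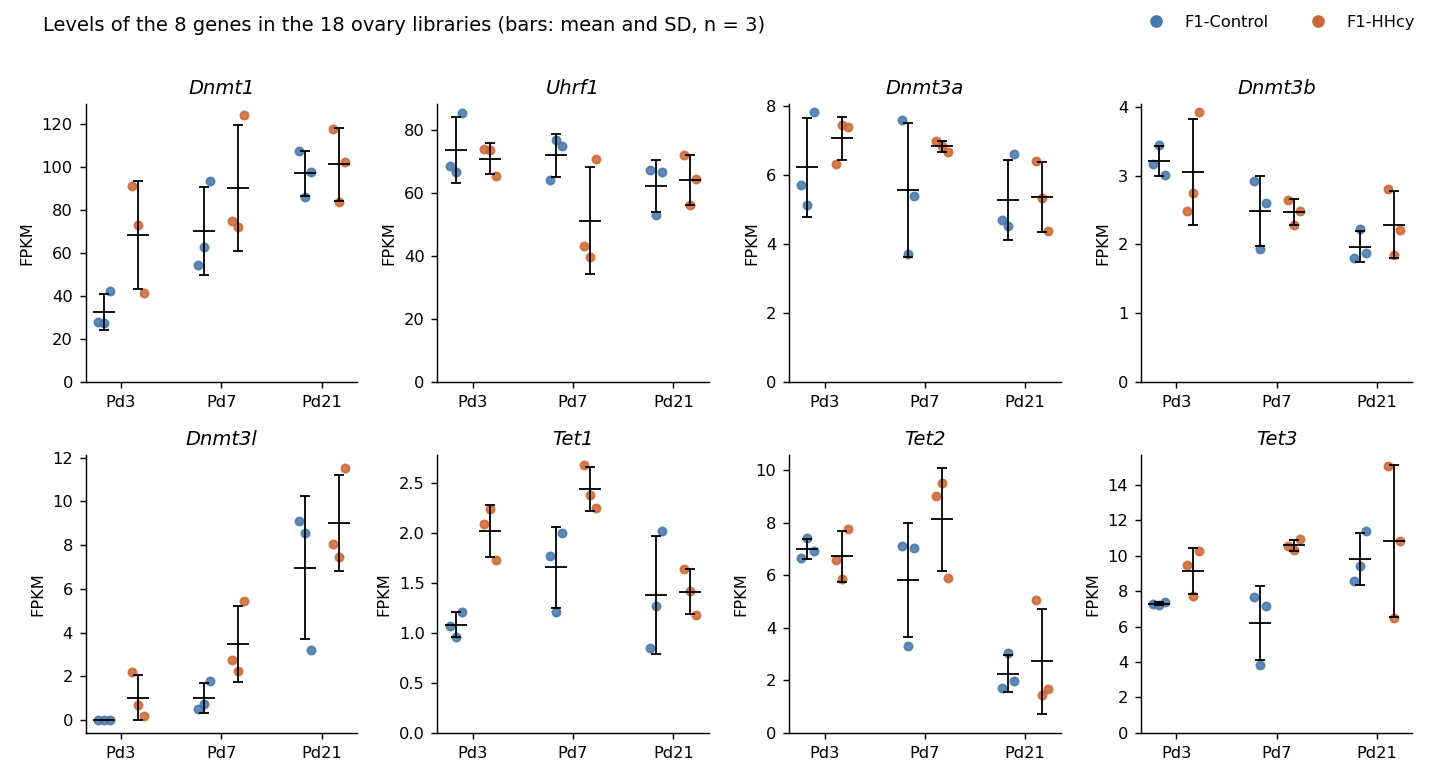
FPKM (y axis, linear, from 0) of the 8 genes at Pd3, Pd7 and Pd21 (x axis) in the F1-Control (blue) and F1-HHcy (orange) libraries, 1 point a library, with the mean and SD of 3 libraries as black bars. Dnmt1 and Dnmt3l had their lowest group means in F1-Control at Pd3 and Tet2 had its lowest at Pd21, while Uhrf1 stood between 39.6 and 85.4 FPKM throughout.

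The copying enzymes were the most abundant of the 8 genes in every group. Dnmt1 (chr9:20907209-20959888, minus strand) ranged from 27.3 FPKM in an F1-Control Pd3 library to 124 FPKM in an F1-HHcy Pd7 library. Uhrf1 (chr17:56303321-56323486, plus strand) was first in the order at Pd3 in both diets and in F1-Control at Pd7, and Dnmt1 was first in F1-HHcy at Pd7 and in both diets at Pd21. The libraries of these 2 genes overlapped in F1-HHcy at Pd3 and in F1-Control at Pd7, so their order there did not exceed the spread. Tet3 was the third in all 6 groups, at group means of 6.20 to 10.8 FPKM. Its libraries overlapped those of the next gene in every group but F1-HHcy at Pd3 and Pd7. Dnmt3l was last in 3 groups (F1-Control at Pd3 and Pd7 and F1-HHcy at Pd3) and the fourth in both diets at Pd21. Of the 42 pairs of neighbours in the order within a group, 22 had libraries that did not overlap. The length used for Dnmt3a, 24591 bases, was 2.54 times its longest GENCODE transcript, so its FPKM is lower than it would be per transcript length. With the longest transcript as the length, Dnmt3a took the place of Tet3 as the third in all 6 groups, Dnmt1 came before Uhrf1 also in F1-HHcy at Pd3 and in F1-Control at Pd7, and 25 of the 42 pairs did not overlap.

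At Pd3, none of the 7 members tested passed between the diets, where 3.07% of the 13277 genes tested did. At an unadjusted p under 0.05 there were 2, Dnmt1 and Tet1, and 22.4% of all genes. Dnmt1 measured 28.0, 27.3 and 42.4 FPKM in the F1-Control libraries and 91.3, 73.1 and 41.5 FPKM in the F1-HHcy libraries. Replicates 1 and 2 of F1-HHcy lay above every control, and replicate 3 lay just under the highest control. The log2 fold change of Dnmt1 was 1.01 (SE 0.30, limma, adjusted p = 0.107). When F1-HHcy Pd3 replicate 3 was left out it was 1.33 (limma, adjusted p = 0.00416). Dnmt1 also passed in the model of all 18 libraries, with that library kept, so the call depended on the library and on the model. Dnmt1 passed as well under a criterion without adjustment (p under 0.05, and over 0.58 in either direction on the log2 scale), as 9.74% of all genes did.

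Uhrf1, the partner of Dnmt1, measured 68.4, 66.6 and 85.4 FPKM in F1-Control and 73.8, 73.4 and 65.1 FPKM in F1-HHcy at Pd3. The groups overlapped, and the 95% interval of its log2 fold change ran from -0.34 to 0.25. The level of Dnmt1 relative to Uhrf1 was compared after the values were seen, as a description without a test. At Pd3 the ratio of their FPKM was 0.409 to 0.496 in F1-Control and 0.637 to 1.24 in F1-HHcy, a difference of 1.08 on the log2 scale. At Pd7 it was 0.820 to 1.25 in F1-Control and 1.74 to 1.83 in F1-HHcy, a difference of 0.89, and at Pd21 it was 1.47 to 1.63 and 1.49 to 1.64. Every F1-HHcy library stood above every F1-Control library at Pd3 and Pd7, and the groups overlapped at Pd21.

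**Figure D2:**
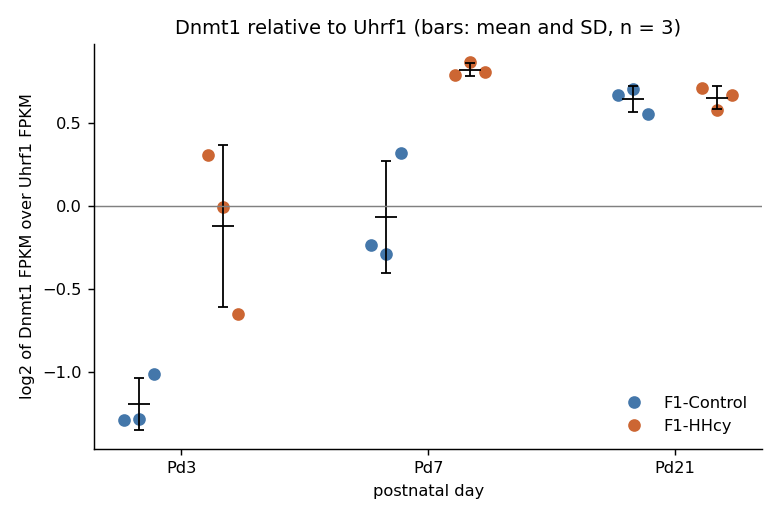
The log2 of Dnmt1 FPKM over Uhrf1 FPKM (y axis) at Pd3, Pd7 and Pd21 (x axis), 1 point a library, with the mean and SD of 3 libraries as black bars. The F1-Control means over the days were -1.20, -0.07 and 0.65, and the F1-HHcy means were -0.12, 0.83 and 0.66.

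Dnmt3l (chr10:78041947-78063622, plus strand) was listed at 0, 0.0105 and 0 FPKM in the F1-Control Pd3 libraries, a single fragment in all, and at 2.17, 0.700 and 0.174 FPKM in the F1-HHcy libraries, 293 fragments in all. Every F1-HHcy library was above every control. The ratio of the summed fragments, scaled to depth, was 292, with a 95% interval of 52.0 to 11570 that covers counting error only and leaves out the spread between libraries. Dnmt3l did not reach 1 FPKM in 3 libraries at this day and was not tested. Dnmt3a (chr12:3806007-3914443, plus strand) and Dnmt3b (chr2:153649450-153687730, plus strand), which place new marks, overlapped between the diets at 5.12 to 7.83 and 2.49 to 3.93 FPKM over the 6 libraries.

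Tet1 (chr10:62804570-62908996, minus strand) measured 1.07, 0.963 and 1.21 FPKM in F1-Control and 2.09, 2.23 and 1.73 FPKM in F1-HHcy at Pd3. The groups did not overlap, as was so for 27.9% of all genes tested. Its log2 fold change was 0.53 (SE 0.14, limma, adjusted p = 0.0848). It was 0.60 (limma, adjusted p = 0.0225) without F1-HHcy Pd3 replicate 3, and 0.90 (adjusted p = 0.0384) with limma-voom on fragment numbers recovered from the FPKM. Tet3 (chr6:83362373-83459084, minus strand) did not overlap either, at 7.19 to 7.38 FPKM in F1-Control and 7.72 to 10.3 FPKM in F1-HHcy, with a log2 fold change of 0.28 (limma, adjusted p = 0.242). Tet2 overlapped, at 6.65 to 7.41 and 5.84 to 7.74 FPKM.

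The levels of 12 growing-oocyte genes moved with these differences at Pd3. Their summed level was 1192 to 1821 FPKM in F1-Control and 2232 to 3573 FPKM in F1-HHcy, and 4 of the 12 rose and none fell. Gdf9, an oocyte growth factor, and Zar1, a maternal-effect gene, were among those that rose, with log2 fold changes of 1.85 (limma, adjusted p = 0.0388) and 2.62 (limma, adjusted p = 0.0175). F1-HHcy Pd3 replicate 3, which was lowest of its group in Dnmt1, Dnmt3l and Tet1, was also lowest in the mean log2(FPKM + 1) of these genes, at 6.55 against 7.56 and 7.64. On the same scale it was lowest of its group in the granulosa-cell (3.66 against 4.90 and 4.53) and theca (2.24 against 4.32 and 2.71) lists, and in the proliferation, endothelium, stroma and immune lists. It was highest in the germ-cell list, at 4.81 against 3.50 and 4.14, and in the erythroid and multiciliated-cell lists. All 8 erythroid genes fell, from a summed 3942 to 11290 FPKM to 784 to 1108 FPKM, and 3 of the 9 granulosa-cell genes and 3 of the 7 stroma genes tested rose. None of the 11 germ-cell, 3 theca, 6 immune, 6 endothelium and 4 multiciliated-cell genes tested passed. None of the 14 proliferation genes passed, and Dnmt1 minus their mean was higher by 0.96 on the log2 scale in F1-HHcy, without overlap. Relative to the growing-oocyte genes, whose own level was higher, Dnmt1 was lower in F1-HHcy by 0.52 on the log2 scale, also without overlap. Uhrf1, Dnmt3a, Dnmt3b, Tet1, Tet2 and Tet3 were lower relative to these genes as well, without overlap and each by more than Dnmt1. The difference was 0.99 for Tet1 and 1.57 for Uhrf1. For Dnmt3l the value was lower by 0.64, with overlap, but its F1-Control libraries stood at or near 0 FPKM. The 1 added to the FPKM sets that value, so its direction is not read. Relative to the germ-cell and primordial-oocyte genes, every member was higher in F1-HHcy, from 0.63 (Dnmt3b) to 1.715 (Dnmt1). The groups overlapped for Dnmt1, Uhrf1 and Dnmt3a and not for the other members. The summed level of these germ-cell genes was 574 to 701 FPKM in F1-Control and 184 to 607 FPKM in F1-HHcy. The direction thus differed with the list used. The part of any of these cell types in the differences was not tested.

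**Figure D3:**
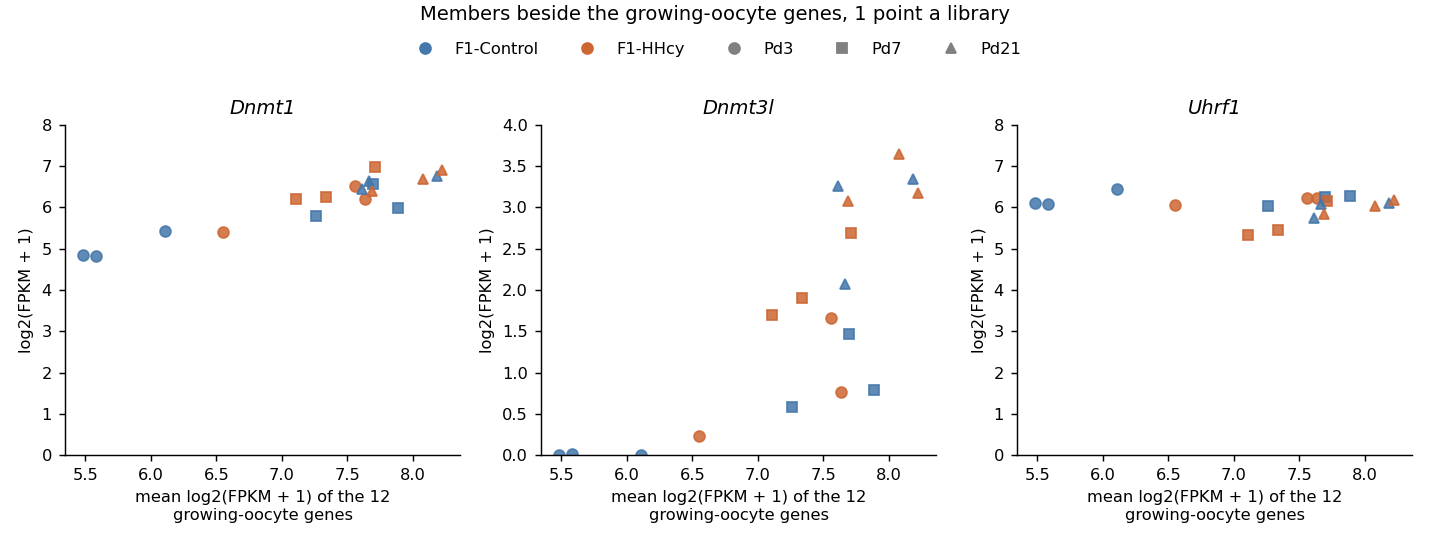
The log2(FPKM + 1) of Dnmt1, Dnmt3l and Uhrf1 (y axes) against the mean log2(FPKM + 1) of the 12 growing-oocyte genes (x axis), 1 point a library, coloured by diet and shaped by day. The 3 F1-Control Pd3 libraries lie near 0 for Dnmt3l, and at 27.3 to 42.4 FPKM of Dnmt1, at an oocyte mean of 5.48 to 6.11, while Uhrf1 lies between 39.6 and 85.4 FPKM in all 18 libraries.

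At Pd7, Dnmt3l was the only member of the 8 tested that passed between the diets, where 11.9% of the 13299 genes did. At an unadjusted p under 0.05 there were 4 (Uhrf1, Dnmt3l, Tet1 and Tet3), and 31.5% of all genes. Dnmt3l measured 0.493, 0.731 and 1.76 FPKM in F1-Control and 2.73, 2.24 and 5.45 FPKM in F1-HHcy. Each F1-HHcy library stood above each control. It rose by 1.15 on the log2 scale (SE 0.29, limma, adjusted p = 0.0347). It met the filter of 1 FPKM in 3 libraries only through the F1-HHcy libraries, since 1 control library was above 1 FPKM, so its call is given as a description. Without the filter it did not pass (limma, adjusted p = 0.149), nor in the model of all 18 libraries (limma, adjusted p = 0.0539). The call was lost without F1-Control replicate 1 (0.97, adjusted p = 0.0845), F1-Control replicate 2 (1.07, adjusted p = 0.119), F1-HHcy replicate 1 (1.25, adjusted p = 0.0632) or F1-HHcy replicate 3 (0.85, adjusted p = 0.0919), all in limma.

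Aire, which overlaps Dnmt3l on the opposite strand, was measured at 0.427, 0.172 and 0.361 FPKM in F1-Control and 1.06, 1.13 and 1.28 FPKM in F1-HHcy at Pd7. The library kit keeps the strand, but whether the counting used it is not given in the sources used here, so reads of the overlap cannot be assigned with certainty. At Pd3 Aire measured 0.603, 0.0425 and 0.147 FPKM in the F1-HHcy libraries, of which the first lay above the F1-Control range of 0 to 0.317 FPKM and the others within it.

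Tet3 measured 7.65, 3.81 and 7.15 FPKM in F1-Control and 10.6, 10.3 and 10.9 FPKM in F1-HHcy at Pd7. The F1-HHcy libraries lay close together and above each control, and the control at 3.81 FPKM was replicate 2. The log2 fold change was 0.73 (SE 0.22, limma, adjusted p = 0.0547). It was 0.47 (limma, adjusted p = 0.0554) without F1-Control replicate 2, 0.89 (limma, adjusted p = 0.0494) without F1-Control replicate 1 and 0.85 (limma, adjusted p = 0.0456) without F1-Control replicate 3. Tet1 did not overlap either, at 1.77, 1.21 and 2.00 against 2.68, 2.38 and 2.25 FPKM, with a log2 fold change of 0.38 (SE 0.17, limma, adjusted p = 0.149). The 3 members without overlap stand beside 39% of all genes tested. Dnmt3l and Tet3 passed under the criterion of unadjusted p and fold, as 16.4% of all genes did.

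Uhrf1 measured 64.0, 76.7 and 74.8 FPKM in F1-Control and 43.1, 39.6 and 70.7 FPKM in F1-HHcy at Pd7. Replicates 1 and 2 of F1-HHcy lay below all controls and replicate 3 lay among them. Its log2 fold change was -0.53 (SE 0.21, limma, adjusted p = 0.127). It was -0.78 (limma, adjusted p = 0.0343) when F1-HHcy replicate 3 was left out. Dnmt1 measured 54.4, 62.8 and 93.5 against 74.8, 72.3 and 124 FPKM, with overlap and a log2 fold change of 0.35 (SE 0.25, limma, adjusted p = 0.357). Dnmt3a, Dnmt3b and Tet2 overlapped as well, with log2 fold changes between 0.00 and 0.46.

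The oocyte genes moved in both directions at Pd7. Of the 11 germ-cell and primordial-oocyte genes tested, 9 fell and 1 rose, and their summed level was 245 to 464 FPKM in F1-Control and 102 to 141 FPKM in F1-HHcy. Of the 12 growing-oocyte genes, 2 rose and 3 fell, with a summed level of 2858 to 4607 FPKM in F1-Control and 1898 to 2867 FPKM in F1-HHcy. Dnmt3l minus the mean of the growing-oocyte genes was higher by 1.38 on the log2 scale in F1-HHcy, and the groups did not overlap. Dnmt1 and Tet3 were higher relative to the same genes by 0.58 and 0.96, also without overlap, and Uhrf1 was lower by 0.30 with overlap. Relative to the germ-cell and primordial-oocyte genes, whose own level was lower, every member was higher in F1-HHcy without overlap. These differences ran from 0.71 (Uhrf1) to 2.38 (Dnmt3l). In the other lists, 6 of 7 theca genes and 4 of 12 granulosa-cell genes rose, as did 1 of 7 stroma and 1 of 6 endothelium genes. The 5 erythroid genes tested, 1 of 14 proliferation genes and 1 of 5 multiciliated-cell genes fell, and none of 6 immune genes passed. Their part in the results for the members was not tested.

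At Pd21, none of the 8 members passed in limma, where 2.23% of 13350 genes did, all of them lower in F1-HHcy. None had an unadjusted p under 0.05, where 6.85% of genes did, and none passed in limma-voom. The groups overlapped in all 8, where 10.5% of genes did not overlap. Dnmt3l measured 9.12, 8.57 and 3.22 FPKM in F1-Control and 8.05, 7.44 and 11.5 FPKM in F1-HHcy, with overlap. Its log2 fold change was 0.41 (SE 0.34, limma, adjusted p = 1), and its 95% interval ran from -0.36 to 1.18, which includes the value at Pd7. The other 7 had log2 fold changes between 0.03 and 0.14. Of the marker lists, 5 of the 7 multiciliated-cell genes tested fell at Pd21, at a summed 60.2 to 225 against 6.00 to 10.3 FPKM, and no gene of the oocyte, granulosa-cell, theca, stroma, proliferation, erythroid, immune or endothelium lists passed. Among those that fell, Foxj1 and Dnah5 had F1-HHcy means of 0.354 and 0.0833 FPKM. They met the filter only through the F1-Control libraries, so their calls are a description.

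**Figure D4:**
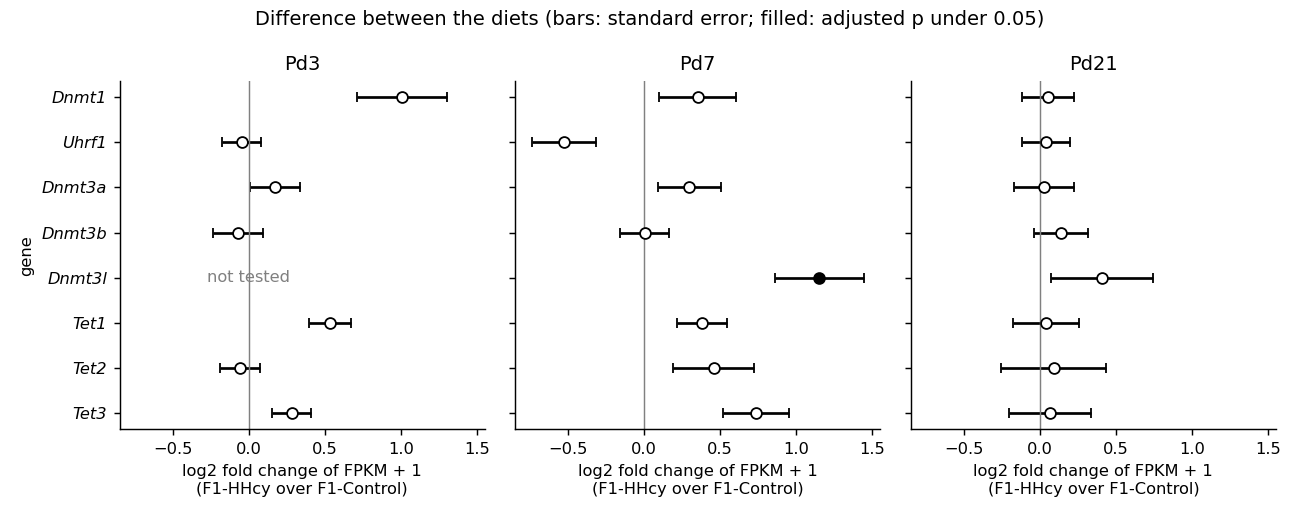
Log2 fold change of FPKM + 1, F1-HHcy over F1-Control (x axis), for the 8 genes (y axis) at Pd3, Pd7 and Pd21, with the standard error from limma as bars and a filled point where the adjusted p was under 0.05. Dnmt3l at Pd7 (1.15) is the filled point, Dnmt1 at Pd3 (1.01) is the next in size, and the Pd21 values lie between 0.03 and 0.41.

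Whether the difference between the diets itself changed with day was tested with interaction terms, and no member passed. The background was 0.411% of 14607 genes for Pd3 against Pd7, 3.89% for Pd7 against Pd21 and 4.59% for Pd3 against Pd21. At an unadjusted p under 0.05 there were 0, 1 and 1 members, and 13.8%, 19.4% and 16.1% of all genes. The member for Pd3 against Pd21 was Dnmt1, with a difference of -0.96 (SE 0.39, limma, adjusted p = 0.224), and it was -1.28 (limma, adjusted p = 0.0329) without F1-HHcy Pd3 replicate 3. For Pd7 against Pd21 it was Uhrf1, with a difference of 0.57 (SE 0.26, limma, adjusted p = 0.239), and without F1-HHcy Pd7 replicate 3 it passed, as the 1 member that did. For the same days Tet3 differed by -0.66 (SE 0.33, limma, adjusted p = 0.287). Under the criterion of unadjusted p and fold Dnmt1 passed for Pd3 against Pd21, as 13% of all genes did.

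Over the days, Dnmt1 and Dnmt3l rose and Tet2 fell in F1-Control, and Dnmt3l rose and Tet2 fell in F1-HHcy. In F1-Control at Pd3 and Pd7 and in F1-HHcy at Pd3, fewer than 3 libraries of Dnmt3l reached 1 FPKM. In contrasts with these groups it met the filter only through other groups, so its calls there are given as a description. Contrasts with Pd21 also cross the batches, so day and batch cannot be told apart there, while Pd3 and Pd7 share a batch. The cell-type markers moved over the days as well. Between Pd3 and Pd7 in F1-Control, 9 of 12 growing-oocyte genes and 5 of 12 granulosa-cell genes rose, and 1 granulosa-cell, 3 of 11 germ-cell and 4 of 8 erythroid genes fell. In F1-HHcy, 1 growing-oocyte gene rose and 7 of 11 germ-cell genes fell. The part of these cell types in the changes of the members over the days was not tested. Between Pd3 and Pd7, Dnmt1 rose in F1-Control by 1.08 on the log2 scale (SE 0.28, limma, adjusted p = 0.0228), where 11.4% of all genes passed, and each Pd7 library was above each Pd3 library. Dnmt1 and Dnmt3l passed there under the criterion of unadjusted p and fold, as 13.7% of all genes did. The limma call of Dnmt1 was lost without F1-Control Pd3 replicate 1 (0.99, adjusted p = 0.0969), Pd3 replicate 2 (0.97, adjusted p = 0.0899) or Pd7 replicate 3 (0.85, adjusted p = 0.117), all in limma. In F1-HHcy no member passed in limma, where 5.48% of genes did, and 2 had an unadjusted p under 0.05, beside 23.3% of all genes. Dnmt3l had a log2 fold change of 1.21 (SE 0.37, limma, adjusted p = 0.0646) and passed without F1-HHcy Pd3 replicate 1 (adjusted p = 0.00986) in limma. It also passed under the criterion of unadjusted p and fold, as 11.8% of all genes did. Uhrf1, the other of the 2, had a log2 fold change of -0.51 (SE 0.18, limma, adjusted p = 0.106). Dnmt1 had a log2 fold change of 0.42 (SE 0.28, limma, adjusted p = 0.389) in F1-HHcy.

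Between Pd3 and Pd21 in F1-Control, 4 members passed, where 46.2% of all genes did. Dnmt1 rose by 1.57 (SE 0.28, limma, adjusted p = 2.7e-04), from a mean of 32.6 FPKM ± 8.50 (SD, n = 3) to 97.2 FPKM ± 10.6 (SD, n = 3). Dnmt3l rose by 2.89 (SE 0.37, limma, adjusted p = 1.57e-05), to a mean of 6.97 FPKM ± 3.26 (SD, n = 3). It was listed at 0, 0.0105 and 0 FPKM in these Pd3 libraries and met the filter only through other groups, so this call is a description. Tet2 (chr3:133463679-133545139, minus strand) fell by 1.32 (SE 0.30, limma, adjusted p = 0.00208), from 6.65, 7.41 and 6.91 FPKM to 1.70, 3.04 and 1.99 FPKM. Dnmt3b fell by 0.51 (SE 0.16, limma, adjusted p = 0.0149), and this call was lost without F1-Control Pd3 replicate 2 (adjusted p = 0.0529) or Pd21 replicate 1 (adjusted p = 0.0532) in limma. In these 4 genes and in Tet3, 5 in all, the libraries of the 2 days did not overlap, as was so for 58.9% of all genes. Under the criterion of unadjusted p and fold, Dnmt1, Dnmt3l and Tet2 passed and Dnmt3b did not, and 35.2% of all genes passed. Of the markers, 8 of 12 growing-oocyte genes rose, from a summed 1192 to 1821 FPKM to 2645 to 3973 FPKM, and 10 of 12 granulosa-cell genes rose and 1 fell, while 9 of 11 germ-cell and all 8 erythroid genes fell.

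In F1-HHcy, 2 members passed between Pd3 and Pd21, where 28.3% of all genes did. Dnmt3l rose by 2.41 (SE 0.37, limma, adjusted p = 5.87e-04) and Tet2 fell by 1.17 (SE 0.30, limma, adjusted p = 0.00959). The Tet2 call was lost without F1-HHcy Pd21 replicate 2 (-0.93, adjusted p = 0.0516) or replicate 3 (adjusted p = 0.0526) in limma. Dnmt1 had a log2 fold change of 0.61 (SE 0.28, limma, adjusted p = 0.107), and of 0.85 (limma, adjusted p = 0.0374) without F1-HHcy Pd3 replicate 1. It passed under the criterion of unadjusted p and fold, beside Dnmt3l and Tet2, as 23.5% of all genes did. Here 6 of 12 growing-oocyte and 8 of 12 granulosa-cell genes rose and 7 of 11 germ-cell genes fell. The F1-Control and F1-HHcy values for Dnmt1 were not shown to differ, as given by the interaction above.

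Dnmt3l and Tet2 also passed between Pd7 and Pd21 in both diets. In F1-Control, Dnmt3l rose by 1.95 (SE 0.37, limma, adjusted p = 0.00119) and Tet2 fell by 1.03 (SE 0.30, limma, adjusted p = 0.017), where 30.3% of all genes passed. The Tet2 call was lost without F1-Control Pd7 replicate 1 (-0.88, adjusted p = 0.0734), Pd7 replicate 3 (-0.89, adjusted p = 0.0638) or Pd21 replicate 1 (-0.91, adjusted p = 0.0731) in limma. In F1-HHcy, where 19.6% of all genes passed, Tet2 fell by 1.40 (SE 0.30, limma, adjusted p = 0.00727), a call lost without F1-HHcy Pd7 replicate 2 (-1.29, adjusted p = 0.051). Dnmt3l rose there by 1.21 (SE 0.37, limma, adjusted p = 0.0328), and in 4 of the 6 fits that left out a library its adjusted p was over 0.05, at up to 0.154 without F1-HHcy Pd7 replicate 2. Tet1 fell by 0.51 (SE 0.17, limma, adjusted p = 0.0436), and in 5 of the 6 such fits it did not pass, with an adjusted p of up to 0.162 without F1-HHcy Pd21 replicate 3. Under the criterion of unadjusted p and fold, Dnmt3l and Tet2 passed in F1-HHcy and Tet1 did not, and 17.9% of all genes passed. Of the markers, 4 growing-oocyte and 7 granulosa-cell genes rose and 2 growing-oocyte, 6 germ-cell and 5 erythroid genes fell in F1-Control, and 4 growing-oocyte genes and 1 germ-cell gene rose in F1-HHcy.

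The shares of the Tet genes within a library do not depend on how the library was scaled, and are given over the days without a test. Tet2 made up 45.5% ± 1.84 (SD, n = 3) of the summed Tet FPKM in F1-Control at Pd3, 42.1% ± 2.06 (SD, n = 3) at Pd7 and 16.8% ± 4.80 (SD, n = 3) at Pd21. Tet3 made up 47.5% ± 1.19 (SD, n = 3), 45.4% ± 1.07 (SD, n = 3) and 73.2% ± 4.29 (SD, n = 3). In F1-HHcy, Tet3 made up 51.0% ± 1.85 (SD, n = 3), 50.4% ± 5.99 (SD, n = 3) and 72.6% ± 5.65 (SD, n = 3). Tet1 had the smallest share in each group, at means of 7.05% to 12.5%.

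Between the diets, 7 of 21 shares within the Tet genes and within the Dnmt genes did not overlap: Tet1, Tet2, Tet3, Dnmt3a and Dnmt3l at Pd3, and Tet3 and Dnmt3l at Pd7. The levels of 27.9% of all genes tested did not overlap at Pd3, of 39% at Pd7 and of 10.5% at Pd21. No background was computed for shares. Shares of 1 set add up to the whole, so they are not independent, and the count is a description. At Pd3 the Tet2 share was 45.5% in F1-Control and 37.5% ± 1.53 (SD, n = 3) in F1-HHcy, and the Tet1 share was 7.05% ± 0.815 (SD, n = 3) and 11.5% ± 2.69 (SD, n = 3). The Dnmt3l share of the Dnmt genes at Pd7 was 1.17% ± 0.486 (SD, n = 3) and 3.25% ± 0.630 (SD, n = 3). Each of the 7 had a 2-sided exact permutation p of 0.1, the smallest that 3 against 3 libraries allow, and 0.3 after adjustment over the 21, so the design could not reach 0.05.

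**Figure D5:**
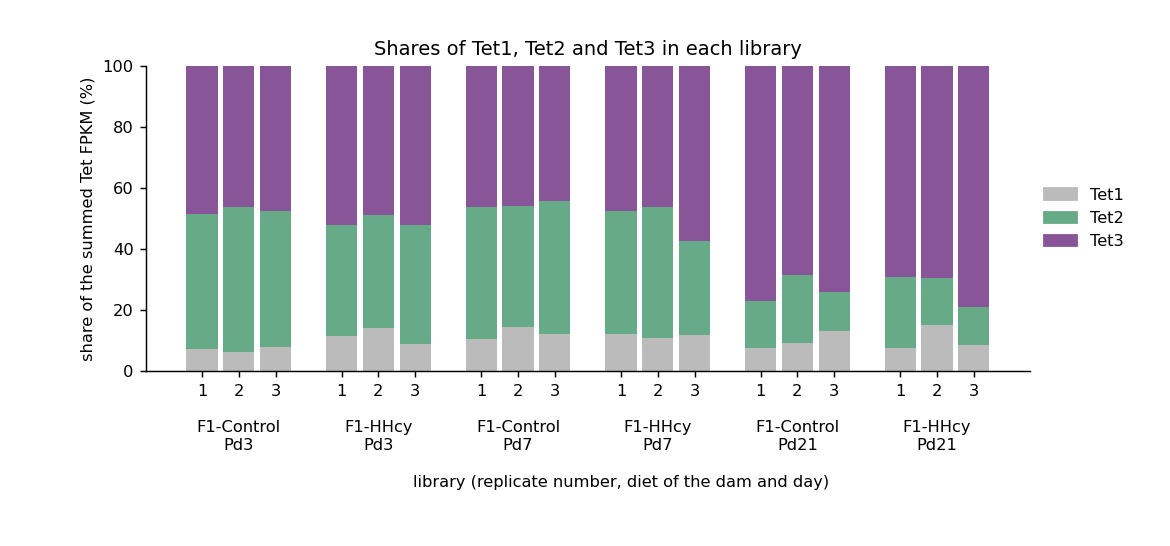
Share of the summed Tet FPKM (y axis, percent) taken by Tet1, Tet2 and Tet3 in each of the 18 libraries (x axis, by diet and day). Tet2 takes 44.3% or more in the F1-Control Pd3 libraries and a mean of 16.8% in the F1-Control Pd21 libraries, and Tet3 a mean of 73.2% in the latter.

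The other genes of the pathway were described with 4 lists. Of the genes of the methyl-CpG readers, which bind methylated DNA, 10 were tested and none passed between the diets at any day in limma. Of 15 oxidised-base removal genes and TET partners tested at Pd3, where 3.07% of all genes passed, 1 fell, Ung, a uracil-DNA glycosylase, which measured 17.4 FPKM or more in each F1-Control library and 11.5, 13.2 and 12.0 FPKM in F1-HHcy. Its log2 fold change was -0.50 (limma, adjusted p = 0.0475), and it did not pass in 5 of the 6 fits that left out a library, at up to 0.243 without F1-Control Pd3 replicate 1. None of 15 methylation partners and none of 8 methyl-donor genes tested passed at Pd3 in limma.

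At Pd7, 2 of 14 methylation partners fell and none rose, beside 11.9% of all genes that passed in either direction, a share near that background. Dppa3, which keeps UHRF1 out of the oocyte nucleus and so limits DNMT1 there, measured 550, 785 and 329.7 FPKM in F1-Control and 265, 229 and 208 FPKM in F1-HHcy. It fell by 1.16 on the log2 scale (limma, adjusted p = 0.0316), and in 5 of the 6 fits that left out a library it did not pass, at up to 0.0952 without F1-HHcy Pd7 replicate 3. Kdm1b, a histone demethylase needed for imprints in oocytes, measured 53.7, 55.7 and 45.2 FPKM in F1-Control and 24.2, 20.9 and 31.6 FPKM in F1-HHcy, and fell by 1.00 (limma, adjusted p = 0.00824). In both genes every F1-HHcy library lay below every control. Both are oocyte genes, and they fell beside 9 of the 11 germ-cell and primordial-oocyte genes at the same day. Dnmt3l was higher in every F1-HHcy library than in every control at that day, but its call is only a description, as given above.

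In the other lists at Pd7, 1 of 17 oxidised-base removal genes and TET partners fell and none rose, beside the same 11.9%. This was Gadd45b, a stress-response gene linked to demethylation, which fell by 1.12 (limma, adjusted p = 0.00808), from 21.4, 19.2 and 12.8 FPKM to 7.99, 7.89 and 6.63 FPKM. Of 9 methyl-donor genes, 1 rose and 1 fell, again beside 11.9% of all genes. Cbs, which turns homocysteine into cystathionine, measured 0.357, 0.0618 and 3.29 FPKM in F1-Control and 10.2, 12.8 and 13.1 FPKM in F1-HHcy, and rose by 2.82 (limma, adjusted p = 0.00557), and it too met the filter only through the F1-HHcy libraries. Gnmt, a glycine methyltransferase that uses up the methyl donor, measured 1.79, 2.19 and 2.01 against 1.11, 1.27 and 0.680 FPKM and fell by 0.58 (limma, adjusted p = 0.0495), a call that was lost in all 6 fits that left out a library, at up to 0.137 without F1-HHcy Pd7 replicate 1. At Pd21 none of the genes of the 4 lists passed between the diets in limma. At that day Cbs stood at 17.8, 10.7 and 29.8 FPKM in F1-Control and 3.30, 7.12 and 12.2 FPKM in F1-HHcy, so its groups overlapped.

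The median log2 fold change of the 8 members at Pd7 was 0.37, beside 0.00 over all genes tested. It was 0.06 at Pd21, beside -0.01, and that of the 7 tested at Pd3 was 0.17, beside -0.03. For the methyl-CpG readers, the methylation partners, the oxidised-base list and the methyl-donor genes the medians at Pd7 were 0.21, 0.06, -0.05 and 0.13. The F1-Control Pd7 replicate 2 library was lowest of its group for Dnmt3a, Dnmt3b, Tet1, Tet2 and Tet3. It was also lowest in the mean log2(FPKM + 1) of each of these lists, at 2.75 against 3.31 and 3.21 for the readers. The medians at Pd7 without this library were not computed.

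The genes nearest in pattern to each member were found among 13430 genes with a mean of at least 1 FPKM, as the smallest root mean square difference between profiles standardised over the 18 libraries. Dnmt3l had the closest neighbours, Gm17751 (0.130), Gm29483 (0.140) and Gm839 (0.146). Gm839 had group means of 0.112, 2.46 and 16.0 FPKM in F1-Control over Pd3, Pd7 and Pd21, and of 2.12, 8.36 and 19.7 FPKM in F1-HHcy. Dnmt1 was nearest to Zfp109 (0.245), the importin gene Kpna7 (0.270) and the transcription factor gene Klf17 (0.272). Kpna7 had group means of 4.26, 19.2 and 36.8 FPKM in F1-Control and 16.4, 29.2 and 44.0 FPKM in F1-HHcy. Uhrf1 was nearest to Mtmr14 (0.545), Padi6 (0.573) and Atp2c2 (0.585), at more than the distance of any neighbour named for another member. Padi6, a gene of the oocyte cytoplasmic lattices, had group means of 434, 736 and 546 FPKM in F1-Control and 585, 303 and 509 FPKM in F1-HHcy, so that its lowest group mean was that of F1-HHcy at Pd7, as for Uhrf1.

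Tet2 was nearest to Sec61a2 (0.184), Zmym5 (0.191) and LOC115487194 (0.191), and Sec61a2 stood at 15.3 and 15.2 FPKM at Pd3 and at 6.24 and 7.69 FPKM at Pd21 in F1-Control and F1-HHcy. Tet1 was nearest to Pxdn (0.307), Senp7 (0.419) and Epm2aip1 (0.439), and Tet3 to Foxp1 (0.338), Zmiz1 (0.394) and Ccar2 (0.415). Dnmt3a was nearest to Smad5 (0.375), Dab2ip (0.394) and Kat6a (0.410), and Dnmt3b to Ago4 (0.355), Foxn3 (0.360) and Armcx5 (0.377). The 18 profiles share libraries and days, so these distances describe the data and say nothing of shared control.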

How the data were processed

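RNA was taken from whole ovaries of F1 pups and sequenced as poly-A selected, stranded libraries. The deposited tables hold 1 value per gene and library. The submitters' processing notes name FastQC 0.11.9, Trimmomatic 0.39, STAR 2.7.9a, featureCounts 2.0.1 and DESeq2 1.36.0 on GRCm38 (mm10), with no order or settings. The unit of the deposited values is not stated; they were read as FPKM made by the authors, because in all 27294 genes above 0 in at least 3 libraries they gave whole fragments within 0.05 once multiplied by 1 length per gene and 1 factor per library. Totals of 33630304 to 39398922 fragments bound counting error only.

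Groups came from the labels. Genes with at least 1 FPKM in 3 libraries were tested on log2(FPKM + 1) with limma 3.58.1 (R 4.3.3) with a mean-variance trend, for each day on its 6 libraries, and for days and interactions on all 18. P-values were adjusted by Benjamini-Hochberg over all genes tested, with a threshold of 0.05. The fitting procedure was run on simulated data with changes of a fixed size in genes above the filter. Those data do not cover genes near the filter or shifts of a whole library. A common library scale was assumed from the FPKM.

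The 8 members were chosen by symbol, and 14 lists (148 genes) were written from general knowledge. Members and lists were chosen with earlier results of these data known. The text names all members, their 3 nearest genes, and of each list up to 2 genes with the highest level and 2 with the smallest p. Promoters, positions and transcript lengths came from RefSeq (GRCm38.p6) and GENCODE M21. Alternatives were a pseudocount of 0.1, no filter, median-ratio scaling, leaving out hemoglobin and mitochondrial genes, a replicate block, the volcano-plot criterion of the study (unadjusted p under 0.05, log2 fold change above 0.58 in size), 1 model of all 18 libraries, leaving out each library and, added after the data were seen, limma-voom on recovered fragments and the longest transcript as length. Genes overlapping a member (Dnmt3aos at up to 0.126 FPKM, B230319C09Rik at up to 0.187 FPKM and Aire at up to 2.01 FPKM) could share reads with it where counting did not use strand, which is not given in the sources used here.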

Additional observations from a re-analysis of the deposited data

How the results depend on the processing

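The number of members that passed at Pd3 between the diets, 0 in the fit reported, was 1 under the criterion of unadjusted p and fold (Dnmt1), 1 in the model of all 18 libraries (Dnmt1) and 1 in limma-voom (Tet1), and 0 to 2 when a library was left out. At Pd7 it was 1 in the fit reported, 0 without the filter, 2 under median-ratio scaling, 2 under the criterion of unadjusted p and fold, 0 in the model of all 18 libraries, and 0 to 2 when a library was left out. At Pd21 it was 0 under every alternative run. The causes of these changes were not tested.

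For Pd3 against Pd7 in F1-Control the number was 1 in the fit reported, 2 with the pseudocount of 0.1, 0 without the filter, 2 under the criterion of unadjusted p and fold, and 0 to 1 without a library. In F1-HHcy it was 0, 1 under that criterion, and 0 to 1 without a library. For Pd7 against Pd21 it was 2 in F1-Control, and 1 to 2 without a library; in F1-HHcy it was 3, 1 with the pseudocount of 0.1, 1 without the filter, 2 under that criterion, and 0 to 3 without a library. For Pd3 against Pd21 it was 4 in F1-Control and 2 in F1-HHcy, 3 and 3 under the criterion of unadjusted p and fold (without Dnmt3b, and with Dnmt1), and 3 to 4 and 1 to 3 without a library. For the interactions it was 0, but 1 under the criterion of unadjusted p and fold for Pd3 against Pd21, and 0 to 1 without a library for Pd7 against Pd21 and for Pd3 against Pd21.

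The labels do not say whether the replicate numbers pair the samples. Same-numbered libraries of the 2 diets deviated from their group means with correlations of -0.314 to 0.085 over genes. For differently numbered libraries these were -0.165 to 0.282. With groups of 3 libraries this neither shows nor excludes a pairing. With the replicate number as a block, 2 members passed at Pd7 (Dnmt3l and Tet3, adjusted p = 0.0324 in limma), and Tet1 no longer passed between Pd7 and Pd21 in F1-HHcy (adjusted p = 0.058 in limma).

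Over 95 fits of a member, 1332 alternatives were run, and the sign turned in 47 of them, 42 of which left out a library. In none of the 47 did the member pass, and the largest log2 fold change in size among those that turned was 0.29. Of the rest, 26 passed where the fit reported did not and 34 did not pass where it did. Without the filter Kdm1b, Dppa3, Cbs, Gadd45b, Gnmt and Ung no longer passed (adjusted p of 0.0659 to 0.149 over these and Dnmt3l). The shares without overlap numbered 7 to 9 when a library was left out, beside 7 of 21. Of 54 comparisons of a member relative to a marker list, 25 did not overlap, and 25 to 29 when a library was left out. A share over all genes was not computed for these 2 measures, so the counts are not read as a result about the members. Leaving out a library moved the Dnmt1 to Uhrf1 difference to 0.87 to 1.35 at Pd3, 0.78 to 1.09 at Pd7 and -0.04 to 0.05 at Pd21. Genes near the limit of 1 FPKM, Dnmt3l at Pd3 above all, are limited by depth.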
